A study of Homo sapiens with 6 samples.

Results

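The amino acid transporters of the solute carrier (SLC) families were followed in a pooled CRISPR screen through 580 of its 71626 guides. A guide was included where its gene symbol is SLC1A, SLC3A, SLC6A, SLC7A, SLC36A, SLC38A or SLC43A followed by a number, which gave 58 of 7093 genes with 10 guides each. The families contributed 19 SLC6A, 13 SLC7A, 10 SLC38A, 7 SLC1A, 4 SLC36A, 3 SLC43A and 2 SLC3A genes. Membership rests on the symbol alone, so some members carry other substrates: SLC6A2, SLC6A3 and SLC6A4 take up noradrenaline, dopamine and serotonin, SLC6A8 takes up creatine, and SLC43A3 takes up purine nucleobases.

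HAP1 cells, used throughout, are a human leukaemia line with a nearly haploid genome, so that most genes are present as a single copy. The groups were the guide library, parental HAP1 cells and SETD2-mutant HAP1 cells, with 2 samples each. SETD2 is the methyltransferase that places trimethylation on lysine 36 of histone H3 over transcribed genes. Both lines were exposed to the guide virus for 48 hours at a multiplicity of infection of 0.7, divided into replicates afterwards, and kept in puromycin over 12 doublings. The labels name 1 SETD2-mutant genotype without saying how many clones it stands for, and the origin of the library samples is not stated. Because the replicates of a line share a transduction, the p-values reflect no more than the spread within these pairs of samples. The fit shared its estimate of spread over all groups. Tests between the lines thus also drew on the library pair, whose spread was smaller.

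Amino acids cross membranes on carriers, and many of these carriers overlap in substrate, so that loss of one can be covered by another. Members of the SLC7A family known as light chains reach the cell surface bound to a heavy chain of the SLC3A family, and the pair exchanges one amino acid for another. Other carriers use the sodium or proton gradient to concentrate amino acids in the cell, and some sit on the lysosome, where the supply of amino acids is reported to the growth kinase complex mTORC1.

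Total counts were 25082426 to 38428425 per sample, and the transporter guides took between 0.945% and 1.04% of them. Their mean count in the library was 39 to 1687 with a median of 509.5, and all 580 passed the minimum of 30. The spread of the transporter guides between replicates, as chi-square per degree of freedom, was near the value of 1 that counting error gives in the library (1.34) and well above it in the parental (13.4) and mutant lines (13.5). Guides against SETD2 itself were depleted in parental cells (mean log2 change −1.12, SE over guides 0.308, edgeR and RRA adjusted p = 0.000298). In SETD2-mutant cells their mean change from library was −0.61 (SE 0.481, adjusted p = 0.739), and the difference between the lines was called as enrichment (0.50, SE 0.216, adjusted p = 0.00624, or 0.0785 without SETD2-mutant replicate 2).

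Gene effects are means of the log2 fold changes that edgeR gave for the 10 guides. Their standard error (SE) is taken over guides, which are not replicates. A negative value stands for a loss of the cells with those guides relative to the rest of the pool. A gene was called depleted or enriched when its guides, combined by robust rank aggregation (RRA), reached a Benjamini-Hochberg adjusted p below 0.05 over all 7090 genes tested. Levels are CPM, the counts of a sample scaled to a common total, summed over the 10 guides of a gene, and they are compared only within a gene because guides differ in abundance in the library. Scaling on the 100 guides labelled dummyguide, in place of TMM, moved the median of all genes by −0.78 in parental and −0.92 in SETD2-mutant cells against library, and by −0.15 between the lines. Every one of the 58 transporter genes had a mean change below 0 against library under that scaling, so positive values below are relative to the other genes. What the dummyguide guides target is not stated, and the scaling used their summed counts. Whether they are neutral was not tested.

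The first comparison, parental cells against library, asks which transporters the unmutated line lost or gained over the 12 doublings. None of the 58 genes was called in either direction by edgeR and RRA, while 9.9% of all genes were called depleted and 1.11% enriched. Before adjustment, p was under 0.05 for 1 transporter gene as depleted and for 8 as enriched, against 12.1% and 9.38% of all genes. DESeq2 for each guide, in place of edgeR, also called none. The median change of the 58 genes was 0.0032, beside −0.014 over all genes, and their values ran from −0.57 to 0.61. As a scale within the same samples, 51 of 53 ribosomal protein genes were depleted, with a median of −3.53. Single guides moved more often than genes: 78 transporter guides (13.4%) fell and 131 (22.6%) rose, where 21.1% and 18.9% of all guides did. These counts were 35 and 58 without library replicate 1 (12.5% and 8.51% of all guides), and 36 and 58 without library replicate 2 (12.6% and 8.34%). With dummyguide scaling 378 transporter guides fell and 8 rose, beside 65.8% and 1.83% of all guides. In 31 of the 58 genes, guides to the same gene were called in opposite directions, as in 52.6% of all genes. Sample order was also compared by the mean log2 CPM over the guides of a gene, in place of the summed CPM. On this measure both parental samples lay below both library samples in 24 genes and above them in 24. Of all genes, 45.6% and 39.3% did so. The measures can order samples differently, as in SLC38A9.

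SETD2-mutant cells against library is the same question in the mutant line, and it shares the library samples with the first comparison. Here 1 of 58 genes, SLC38A10, was called depleted and none enriched, with backgrounds of 9.04% and 1.11%. Unadjusted p was under 0.05 for 1 gene as depleted and 7 as enriched, where 12.0% and 10.3% of all genes lie. The median was 0.012 beside −0.050 over all genes, with a range from −0.99 to 0.57. The low end is SLC1A7, which has a guide without counts in both mutant samples, and with that guide at its bound (described with the gene) the lowest value was −0.87, of SLC6A5. Among ribosomal protein genes, 50 of 53 were depleted, with a median of −4.08. Of the transporter guides, 118 (20.3%) fell and 144 (24.8%) rose, and all guides gave 23.7% and 22.2%. Without library replicate 1 the counts were 61 and 69 (15.3% and 10.5% of all guides), and without library replicate 2 they were 63 and 68 (15.3% and 10.5%). With dummyguide scaling they were 433 and 4, where 73.1% and 0.764% of all guides were called. Guides called in opposite directions occurred in 39 genes, beside 60.3% of all genes. By mean log2 CPM, both mutant samples were below both library samples in 24 genes and above them in 25. The shares over all genes were 49.2% and 36.1%.

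The direct comparison of the SETD2-mutant with the parental line asks which transporters matter differently to the mutant cells. No transporter gene was called by edgeR and RRA, where 1.28% of all genes were depleted and 1.03% enriched. Unadjusted p was under 0.05 for 3 genes as depleted (SLC38A10, SLC6A5 and SLC6A7) and for 1 as enriched (SLC7A11), and the background shares are 7.53% and 6.84%. DESeq2 for each guide called none in this comparison either. The median change was −0.038 beside −0.0375 over all genes, and the genes ran from −0.85 to 0.40, or from −0.81 with the guide of SLC1A7 at its bound. Of the guides, 74 (12.8%) were lower and 42 (7.24%) higher in the mutant line, and over all guides these shares were 12.8% and 11.5%. Fitted with only the 2 groups compared, 51 were lower and 33 higher, beside 8.65% and 7.15% of all guides. The count of lower guides was 48 without library replicate 1 (8.55% of all guides), 47 without library replicate 2 (8.56%) and 45 without parental replicate 2 (9.04%), and DESeq2 called 69 transporter guides and 17.7% of all guides higher. By mean log2 CPM, both mutant samples lay below both parental samples in 24 of the 58 genes and above them in 7. Over all genes these shares were 38.8% and 26.9%.

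A fit of the mean log2 CPM of each gene by limma, which leaves out the disagreement between guides, called many more genes. It called 11 transporter genes depleted and 2 enriched between the lines, as it called 1585 and 910 of all genes. Against library, limma called 14 transporter genes depleted and 15 enriched in parental cells, where 2234 and 1689 of all genes were called, and 19 depleted and 12 enriched in mutant cells, beside 2703 and 1690.

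SLC38A10 was the transporter with the lowest depletion p in both comparisons of the mutant line. It belongs to the SLC38 family of sodium-coupled neutral amino acid transporters and lies on chromosome 17, 81244811 to 81295307 (GRCh38.p14). Summed over its guides, the library held 111 and 106 CPM, parental cells 115 and 110 CPM, and SETD2-mutant cells 68.3 and 70.7 CPM. Both mutant samples were thus lower than the other 4, and the parental samples lay beside the library. Against library the mean change was −0.84 (SE 0.246), with 9 of 10 guides below 0 and 7 of them called lower (RRA adjusted p = 0.0235). The replicates gave −0.90 and −0.86, and 13.1% of all genes had a lower mean change. In parental cells the change was −0.13 (SE 0.254).

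Between the lines all 10 guides of SLC38A10 were lower in the mutant, which 1.01% of all genes with 10 guides share, and the mean difference was −0.72 (SE 0.107, RRA adjusted p = 0.161). Numbering guides in table order, guides 3 to 8 were each called lower by edgeR. Guides 3, 5 and 8 kept the call in each of the 13 other settings, and guides 4, 6 and 7 lost it in 6, 5 and 5 of them. Fitting only the 2 groups compared ended the call of all 3 (adjusted p by edgeR 0.0519, 0.0910 and 0.118 for guides 4, 6 and 7). So did leaving out either library replicate or SETD2-mutant replicate 1. Leaving out parental replicate 2 ended the call of guides 6 and 7, and leaving out parental replicate 1 or SETD2-mutant replicate 2 that of guide 4. Guide 8 had the largest of these differences. It counted 10.1 and 9.86 CPM in the library, 12.7 and 12.5 CPM in parental cells, and 5.07 and 5.21 CPM in the mutant cells (log2 difference −1.30, adjusted p = 0.00314). Guide 3 counted 13.8 and 12.6 CPM in the library, 17.9 and 18.1 CPM in parental and 9.30 and 9.62 CPM in mutant cells (−0.93, adjusted p = 0.00529). In both guides the parental samples were the highest and the mutant samples the lowest.

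Other guides of SLC38A10 showed different paths to the same sign. Guide 4 rose in both lines, from 10.4 and 9.38 CPM to 29.2 and 21.2 CPM in parental and 17.0 and 16.1 CPM in mutant cells. Its change from library was 1.35 (adjusted p = 0.000724) and 0.74 (adjusted p = 0.0109). The mutant value was not called without library replicate 2 (adjusted p = 0.0784) and was −0.18 with dummyguide scaling. Guide 2 fell in both, from 12.0 and 12.2 CPM to 4.11 and 4.03 CPM and to 1.36 and 4.50 CPM, and its 2 mutant samples lay on either side of the parental ones. The difference between the lines was −0.61 for guide 4 (called, adjusted p = 0.0404) and −0.45 for guide 2 (adjusted p = 0.491).

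The call of SLC38A10 against library did not hold in several refits. The adjusted p was 0.143 without library replicate 1, 0.172 without parental replicate 1 or 2, 0.416 without SETD2-mutant replicate 2, 0.427 with only the 2 groups compared and 0.442 with dummyguide scaling, and it was 1 when RRA used a rank share limit of 0.1. The mean change itself stayed between −0.91 and −0.82 in these refits, apart from −1.76 with dummyguide scaling. The median change of its 79 measured neighbours within 10 Mb was −0.13 in mutant cells against library and −0.05 between the lines.

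The rest of the SLC38 family carries glutamine and other neutral amino acids, and none of its other 9 genes was called in any comparison. SLC38A2, a glutamine carrier of the plasma membrane, summed to 310 and 302 CPM in the library, 318 and 303 CPM in parental and 326 and 345 CPM in mutant cells. Its mean changes were −0.070 (SE 0.148) in parental and 0.070 (SE 0.161) in mutant cells against library. SLC38A1, another glutamine carrier, changed by −0.052 (SE 0.235) and 0.097 (SE 0.185) in the same order, and SLC38A4 by −0.17 (SE 0.195) and −0.13 (SE 0.236). These values are all within about 1 SE of 0.

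SLC38A9 is the lysosomal carrier that signals arginine to mTORC1. Its guides summed to 101 and 101 CPM in the library, 105 and 116 CPM in parental and 95.7 and 115 CPM in mutant cells, and the 2 mutant samples lay on either side of the library samples. Its mean changes of −0.34 (SE 0.355) and −0.45 (SE 0.321) came from few guides. Guide 2 went from 7.63 and 7.32 CPM in the library to 1.64 and 1.07 CPM in parental cells (−2.46, adjusted p = 0.00634, or 0.0597 without parental replicate 2). Guide 3 went from 5.48 and 7.29 CPM to 1.74 and 0.955 CPM (−2.23, adjusted p = 0.00300). The median of the 10 guides was 0.030 in parental cells.

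SLC38A7, which exports glutamine from lysosomes, had the lowest depletion p of the transporters in parental cells, at a mean change of −0.25 (SE 0.424, RRA adjusted p = 0.340). In mutant cells it changed by −0.48 (SE 0.410, adjusted p = 0.426). Its sums were 247 and 255 CPM in the library, 233 and 247 CPM in parental and 214 and 218 CPM in mutant cells. The guides disagreed widely, from −3.14 to 1.38 in parental cells, with 3 called lower and 4 called higher.

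SLC38A8, a glutamine carrier known from the eye, had one of the highest values in parental cells. Its sums were 127 and 126 CPM in the library, 215 and 249 CPM in parental and 154 and 145 CPM in mutant cells, so the parental samples stood above the other 4. Its mean change in parental cells was 0.61 (SE 0.210, RRA adjusted p = 0.167), which is −0.17 with dummyguide scaling, and between the lines it was −0.59 (SE 0.236, adjusted p = 0.714). Guide 2 alone counted 16.7 and 15.6 CPM in the library, 56.7 and 91.6 CPM in parental and 14.3 and 16.2 CPM in mutant cells.

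The heavy chain SLC3A2 (chromosome 11, 62856109 to 62888860) anchors most surface light chains. Its guides summed to 298 and 302 CPM in the library, 279 and 267 CPM in parental and 262 and 274 CPM in mutant cells. Both lines lay below the library and overlapped each other. The mean changes were −0.18 (SE 0.141) and −0.25 (SE 0.211) against library, and −0.072 (SE 0.116) between the lines, none of them called. Guide 4 of SLC3A2 fell in both lines, from 33.5 and 33.8 CPM to 12.3 and 16.9 CPM and to 9.42 and 10.6 CPM (−1.21, adjusted p = 0.000946, and −1.75, adjusted p = 0.000163). Guide 6 also fell, by 0.48 (adjusted p = 0.0152) and 1.03 (adjusted p = 0.000401) on the log2 scale, while guide 8 rose by 0.65 in mutant cells (adjusted p = 0.00189), or −0.27 with dummyguide scaling. The parental call of guide 6 was lost without library replicate 1 (adjusted p = 0.0796), library replicate 2 (0.188) or parental replicate 1 (0.0630). The heavy chain of the kidney and gut, SLC3A1, had mean changes of 0.15 (SE 0.142) and 0.031 (SE 0.180).

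Among the 8 SLC7A light chains, the SLC3A2 partner SLC7A5 (chromosome 16, 87830023 to 87869507), which imports leucine and other large neutral amino acids, with TMM scaling gave changes against library of the opposite sign to its heavy chain. Its guides summed to 265 and 269 CPM in the library, 372 and 392 CPM in parental and 338 and 345 CPM in mutant cells. All 4 line samples were above both library samples, and the parental pair was the higher one. In parental cells all 10 guides were above 0, as for 1.50% of all genes with 10 guides, and 7 were called higher. The mean change was 0.50 (SE 0.0888, RRA adjusted p = 0.109), which was called without parental replicate 1 (0.53, adjusted p = 0.0167) and turned to −0.27 with dummyguide scaling. In mutant cells it was 0.35 (SE 0.102, adjusted p = 0.458), or −0.58 with dummyguide scaling, and the difference between the lines was −0.16 (SE 0.0881).

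SLC7A11 (chromosome 4, 138164097 to 138242349), the cystine and glutamate exchanger that feeds glutathione synthesis, had the lowest enrichment p between the lines. Its sums were 130 and 137 CPM in the library, 137 and 133 CPM in parental and 180 and 192 CPM in mutant cells. The mutant samples were the highest, and the parental samples overlapped the library samples. The mean difference between the lines was 0.40 (SE 0.173, RRA adjusted p = 0.489), with 8 of 10 guides above 0 and 4 called higher. Guide 8 counted 8.07 and 9.40 CPM in parental and 16.6 and 25.9 CPM in mutant cells (1.29, adjusted p = 0.00790, or 0.0602 without parental replicate 1). Guide 4 counted 21.6 and 16.8 CPM against 35.3 and 37.5 CPM (0.92, adjusted p = 0.00743). Against library, SLC7A11 changed by −0.13 (SE 0.191) in parental and 0.27 (SE 0.236) in mutant cells, the latter being −0.65 with dummyguide scaling.

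SLC7A8, the other large neutral amino acid exchanger of this group, is described here because all 10 of its guides lay below 0 in mutant cells, and it was chosen after its values were seen. Its sums were 107 and 103 CPM in the library, 95.9 and 92.1 CPM in parental and 71.1 and 68.6 CPM in mutant cells. The groups did not overlap. The mean change in mutant cells was −0.71 (SE 0.130) with 5 guides called lower, yet the RRA adjusted p was 0.851, and 6.80% of all genes with 10 guides had every guide below 0. The difference between the lines was −0.49 (SE 0.189, adjusted p = 0.753).

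The 5 cationic carriers of the SLC7A family bring in arginine and lysine without a heavy chain or are related to those that do. Between the lines their mean changes ran from −0.049 to 0.034. SLC7A1, the widely expressed arginine importer, summed to 279 and 282 CPM in the library, 297 and 286 CPM in parental and 283 and 296 CPM in mutant cells, and its changes were 0.0025 (SE 0.141), 0.036 (SE 0.114) and 0.034 (SE 0.0817) for parental and mutant cells against library and between the lines. SLC7A2, a second arginine carrier, changed by 0.22 (SE 0.0883) in parental and 0.20 (SE 0.141) in mutant cells against library, and these values were −0.56 and −0.72 with dummyguide scaling.

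The SLC1A family holds the glutamate carriers and the neutral amino acid exchangers SLC1A4 and SLC1A5. Its median change was 0.21 in parental and 0.13 in mutant cells, with 6 of 7 genes above 0 in each, although none was called and all were below 0 with dummyguide scaling. Transporter guides also differed by the kind of identifier, as given below, and the part of that kind in the family median was not tested. SLC1A1 (chromosome 9, 4490468 to 4587469), a carrier of glutamate and cysteine, was the nearest to an enrichment call in both lines. Its sums were 269 and 270 CPM in the library, 405 and 403 CPM in parental and 391 and 392 CPM in mutant cells. Both lines were clear of the library, and all 10 guides were above 0 in each. The mean change was 0.54 in parental (SE 0.108, RRA adjusted p = 0.0586) and 0.47 in mutant cells (SE 0.117, adjusted p = 0.268), or −0.24 and −0.45 with dummyguide scaling.

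The parental value of SLC1A1 crossed the threshold without library replicate 1 (adjusted p = 0.0406), without library replicate 2 (0.0498) and with the replicate number as a block (0.0356). The median change of its 19 measured neighbours within 10 Mb was also above 0, at 0.24 in parental and 0.18 in mutant cells, and the part of chromosomal position in its value was not tested. Between the lines SLC1A1 differed by −0.065 (SE 0.0722).

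SLC1A5, the main glutamine importer of many proliferating cells, summed to 278 and 283 CPM in the library, 385 and 370 CPM in parental and 328 and 353 CPM in mutant cells. Both lines were above the library and the parental samples were the highest. Its mean changes were 0.34 (SE 0.134, RRA adjusted p = 0.423) and 0.21 (SE 0.131), or −0.44 and −0.72 with dummyguide scaling, and −0.13 (SE 0.0981) between the lines. SLC1A3, an aspartate and glutamate importer, summed to 260 and 252 CPM in the library, 305 and 306 CPM in parental and 306 and 304 CPM in mutant cells. Its guides had 4 called higher and 1 lower in parental cells, and the mean was 0.13 (SE 0.164), or −0.64 with dummyguide scaling.

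SLC1A7, a retinal glutamate carrier named after its values were seen, had the lowest fitted mean between the lines, −0.85 (SE 0.789), because of guide 1. The library samples held 42 and 36 counts of it, the parental samples 40 and 19, and the mutant samples 0 and 0. Set against a floor of 3 counts per library, it was at least 7.78-fold lower in mutant than in parental cells. With the guide at this bound the gene mean became −0.36 (SE 0.330), and the median of the 58 genes stayed at −0.038. Against library the guide was at least 10.1-fold lower in mutant cells, and the fitted gene mean of −0.99 (SE 0.830) became −0.50 (SE 0.388). The sums of SLC1A7 were 120 and 122 CPM in the library, 118 and 125 CPM in parental and 120 and 118 CPM in mutant cells. On this measure the parental and mutant samples overlapped.

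The SLC36A carriers couple small neutral amino acids to protons, and with TMM scaling all 4 had means above 0 in each comparison, with none called. SLC36A1, found on lysosomes and at the cell surface, summed to 284 and 288 CPM in the library, 303 and 309 CPM in parental and 305 and 314 CPM in mutant cells. Its mean changes were 0.013 (SE 0.204) and 0.032 (SE 0.236) against library, or −0.76 and −0.89 with dummyguide scaling, and 0.019 (SE 0.128) between the lines, or −0.13. SLC36A3 differed between the lines by 0.26 (SE 0.145, RRA adjusted p = 0.977). SLC36A2, named after its values were seen, had all 10 guides above 0 in mutant cells (0.37, SE 0.0765, adjusted p = 0.524), or −0.55 with dummyguide scaling.

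In the SLC43A family, SLC43A1 imports large neutral amino acids without a heavy chain. Its sums were 119 and 115 CPM in the library, 136 and 150 CPM in parental and 127 and 133 CPM in mutant cells. The lines were above the library, but guides disagreed, and the means were 0.12 (SE 0.304) and 0.12 (SE 0.236), or −0.66 and −0.81 with dummyguide scaling.

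The SLC6A family is the largest, and its mean changes ran from −0.57 to 0.61 in parental and −0.87 to 0.57 in mutant cells, and none of its 19 genes was called. SLC6A19, a neutral amino acid carrier of gut and kidney, summed to 128 and 127 CPM in the library, 183 and 200 CPM in parental and 199 and 215 CPM in mutant cells, so both lines were above the library. Its means were 0.61 (SE 0.137, RRA adjusted p = 0.375) and 0.57 (SE 0.141, adjusted p = 0.311), or −0.16 and −0.36 with dummyguide scaling. Its 16 measured neighbours on chromosome 5 had medians of 0.27 and 0.36. These leave out other transporters, here SLC6A18, which adjoins SLC6A19, and SLC6A3. SLC6A18 summed to 109 and 108 CPM in the library, 80.5 and 91.0 CPM in parental and 98.5 and 98.7 CPM in mutant cells. For SLC6A3 the sums were 86.0 and 81.7, 116 and 105, and 106 and 115 CPM in the same order. The part of position was not tested.

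SLC6A5, a glycine carrier of inhibitory neurons, summed to 99.3 and 103 CPM in the library, 133 and 111 CPM in parental and 73.3 and 73.9 CPM in mutant cells. The mutant samples were the lowest. The mean difference between the lines was −0.81 (SE 0.512, RRA adjusted p = 0.438) and leaned on 2 guides. Guide 6 counted 129 and 146 reads in the library, 146 and 108 in parental and 6 and 2 in mutant cells (−4.63, adjusted p = 0.00225). Guide 3 counted 25.1 and 24.7 CPM in the library, 64.1 and 45.0 CPM in parental and 12.5 and 15.4 CPM in mutant cells (−1.96, adjusted p = 0.000653). Guide 5 went the other way (1.23, adjusted p = 0.00409), and the median of the 10 guides was −0.49.

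SLC6A7, the proline carrier, summed to 88.5 and 88.1 CPM in the library, 109 and 116 CPM in parental and 80.5 and 84.0 CPM in mutant cells, and differed between the lines by −0.36 (SE 0.254, RRA adjusted p = 0.536). The serotonin carrier SLC6A4 summed to 91.9 and 89.4 CPM in the library, 57.5 and 58.0 CPM in parental and 56.8 and 54.5 CPM in mutant cells. Both lines were below the library and beside each other, with means of −0.49 (SE 0.126) and −0.62 (SE 0.195, adjusted p = 0.739). The noradrenaline carrier SLC6A2 had means of −0.35 (SE 0.285) and −0.61 (SE 0.521), and its parental value, not called, was −0.52 without parental replicate 1 and −0.22 without parental replicate 2. Its sums moved less, with 130 and 134 CPM in the library, 132 and 112 CPM in parental and 129 and 124 CPM in mutant cells. The creatine carrier SLC6A8 had −0.38 (SE 0.258) and −0.69 (SE 0.426), and the glycine carrier SLC6A9 had −0.57 (SE 0.286) and −0.67 (SE 0.375). SLC6A8 and SLC6A9 were picked after their values were seen, and their SE exceed the median SE of the 58 genes, which was 0.175 in parental and 0.199 in mutant cells.

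The transporter guides came in 2 kinds by their identifiers, 200 containing MET and 380 containing SRF, and the labels do not say what these stand for. In parental cells the MET transporter guides had a median change of 0.19 and the other MET guides 0.0081, while the SRF transporter guides had 0.00016 and the other SRF guides 0.057. The MET transporter guides were also more abundant in the library, at a median of 26.3 CPM against 17.3 CPM for other MET guides, and the part of abundance in the difference was not tested. The 2 kinds were not compared within families, and the part of kind in the family values above was not tested either.

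Around the transporters, genes of mTORC1 itself and of the pathways that act on it were measured with the same number of guides per gene. Of 5 such genes, RHEB, the small GTPase that switches mTORC1 on, RPTOR, its scaffold, and MTOR, its kinase, were depleted in both lines. With dummyguide scaling the mutant calls of RHEB (adjusted p = 0.116) and RPTOR (0.0594) were lost, and with an RRA limit of 0.1 RPTOR lost its parental call (0.126) and all 3 their mutant calls (0.0628 to 0.0810). Their changes against library were −3.19 (SE 0.341), −2.23 (SE 0.388) and −1.64 (SE 0.311) in parental cells, and −2.63 (SE 0.421), −1.91 (SE 0.472) and −1.77 (SE 0.588) in mutant cells. NPRL2, a subunit of the complex that holds mTORC1 off when amino acids are short, was depleted in mutant relative to parental cells (−1.51, SE 0.265) and was the only one of the 5 called between the lines. Against library its mean was 0.67 in parental cells (SE 0.355, RRA adjusted p = 0.0508, or −0.10 on the mean with dummyguide scaling) and −0.84 in mutant cells (SE 0.242, adjusted p = 0.414), so the lines lay on either side of the library with TMM scaling. The parental value was called enriched with the replicate number as a block (adjusted p = 0.0309), without parental replicate 1 (0.0339), by limma (0.00505) and by RRA with dummyguide scaling (0.0201). FLCN, which acts on mTORC1 through the Rag GTPases, was not called, with −0.042 (SE 0.397) and −0.51 (SE 0.711) against library.

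Of 23 genes that make nonessential amino acids, SHMT2, the mitochondrial enzyme that turns serine into glycine, was depleted in parental (−1.17, SE 0.116) and in mutant cells (−0.96, SE 0.164, edgeR and RRA adjusted p = 0.00772). The mutant call was lost without SETD2-mutant replicate 2 (adjusted p = 0.0880) and with an RRA limit of 0.1 (0.840). GOT1, the cytosolic aspartate aminotransferase, was enriched between the lines (0.57, SE 0.0889, adjusted p = 0.0180), and this call was lost without parental replicate 1 (adjusted p = 0.258) and with an RRA limit of 0.1 (0.118). No other gene of the 23 was called. Of 9 genes for cystine import and glutathione, of which 2 are transporters described above, none was called in any comparison. Among them GPX4, which repairs oxidised membrane lipids, differed between the lines by −0.52 (SE 0.216, adjusted p = 0.168) and GCLM, a subunit of the first enzyme of glutathione synthesis, by 0.33 (SE 0.0760, adjusted p = 0.479). Both were named outside the rule for naming genes. GPX4 had the lowest value of the 9, whose median was −0.048. The 2 measured genes of the response to amino acid shortage, EIF2AK4 and TRIB3, and 15 amino acid carriers outside the named families gave no call either.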

How the data were processed

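Guide abundance was read by 75 bp single-end sequencing, and the authors deposited raw counts per guide, as the whole-number values show. MAGeCK and hg38 are named in the submitters' processing notes, and their role, version and settings are not given in the sources used here. Columns were assigned to samples by name. The transporters and the other gene lists were chosen with earlier results of these data known.

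The filter asked for an average of at least 30 counts in the library and kept 71470 guides, with 56 set aside and the 100 dummyguide guides left out of the gene tests. Counts were scaled with TMM and fitted over all 6 samples with edgeR 4.0.16 (glmQLFit, robust, and glmQLFTest) in R 4.3.3. Guides were combined by RRA, rebuilt from its published description with a rank share limit of 0.25 and an exact null. RRA is one-sided, and p-values were adjusted by Benjamini-Hochberg over all genes in each direction. The method was also run on simulated data with the same spread in every group. The groups here differ in spread, so that run does not show how the method behaves on them. Transporter genes named by rule were those called, the 3 uncalled genes with the lowest p in each direction and comparison, and 10 well-known carriers. From the other lists the rule covered called genes only. FLCN, EIF2AK4, TRIB3, GPX4 and GCLM were uncalled and were named outside the rule, as were SLC3A1 and the transporters marked as chosen after their values were seen. Alternatives covered scaling, the filter, DESeq2 1.42.0, limma 3.58.1 on mean log2 CPM (prior count 2), RRA limit 0.1, the groups fitted, a replicate block and leaving out each sample. Gene positions are from RefSeq GRCh38.p14. Guide sequences were not analysed here. Counting intervals were not used, because the replicate spread exceeded counting error.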

Additional observations from a re-analysis of the deposited data

Results flagged for a closer look

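Between the lines, edgeR called 74 transporter guides lower and 42 higher in SETD2-mutant than in parental cells, and no transporter gene passed the combined test. These are 12.8% and 7.24% of the transporter guides, beside 12.8% and 11.5% of all guides, so the lower count is at the background share. The guides listed next are all those of SLC38A10, SLC6A5, SLC38A8, SLC7A11 and SLC1A7 for which the test of the difference between the lines passed.

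In SLC38A10 they were guides 3 (−0.93), 4 (−0.61), 5 (−1.04), 6 (−0.64), 7 (−0.86) and 8 (−1.30), on the log2 scale. In SLC6A5 they were guides 1 (−1.22), 3 (−1.96), 6 (−4.63), 7 (−1.05) and 9 (−0.82), and guide 5 in the other direction (1.23). In SLC38A8 they were guides 1 (−1.30), 2 (−2.28), 3 (−0.95) and 6 (−0.65), and in SLC7A11 guides 2 (0.79), 4 (0.92), 7 (0.81) and 8 (1.29). SLC1A7 had guide 2 (−0.78). Its guide 1 had no count in either mutant sample, and that log2 difference is bounded at −2.96. The calls of guides 1 and 7 of SLC6A5, guides 1, 3 and 6 of SLC38A8 and guide 7 of SLC7A11 were each lost without library replicate 1 and without library replicate 2, and each also without at least 1 parental and 1 SETD2-mutant replicate (adjusted p by edgeR 0.0510 to 0.190 over these refits). Among the genes named outside the transporters, NPRL2 (−1.51), GOT1 (0.57) and SETD2 itself (0.50) passed the edgeR and RRA test for genes. Of all genes, 1.28% were called depleted and 1.03% enriched in that comparison. The GOT1 and SETD2 calls did not hold in every refit, as given above. No explanation was tested for any of these guides or genes, and the guides were picked after their values were seen.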

How the results depend on the processing

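Limma on gene means called 11 transporter genes depleted and 2 enriched between the lines (1585 and 910 of all genes), 14 and 15 in parental cells (2234 and 1689), and 19 and 12 in mutant cells (2703 and 1690). The 1 call, SLC38A10, became 0 with dummyguide scaling, with only the 2 groups compared and at an RRA limit of 0.1. DESeq2 called 69 transporter guides higher between the lines, beside 17.7% of all guides. Dummyguide scaling called 378 transporter guides lower and 8 higher in parental cells (65.8% and 1.83% of all guides). In mutant cells it called 433 and 4 (73.1% and 0.764%), and 35 of all genes enriched. The causes were not tested. Replicate spread exceeded counting error in both lines, and the part of depth was not tested.

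Leaving out each sample in turn gave 45 to 80 lower transporter guides between the lines, beside 8.55% to 13.6% of all guides. In parental cells 35 to 105 were lower and 58 to 154 higher, beside 12.5% to 25.3% and 8.34% to 23.1% of all guides. In mutant cells 61 to 125 were lower and 68 to 150 higher, beside 15.3% to 24.8% and 10.5% to 23.8%. The shares over all guides thus moved with the transporter counts. Leaving out a sample gave 0 to 1 enriched transporter genes in parental cells and 0 to 1 depleted in mutant cells. Of all genes, 50 to 85 were enriched in mutant cells.

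Deviations of samples with the same replicate number from their group means were uncorrelated over 71470 guides (−0.0050, −0.0025 and −0.0051 for the 3 pairs of groups), so the numbers were not taken as pairs. With the replicate number as a block, 1 transporter gene (SLC1A1) was called enriched in parental cells and SLC38A10 remained the only depleted one in mutant cells.

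Signs turned with dummyguide scaling for values that were above 0. Between the lines these were SLC36A1 (−0.13), SLC36A2 (−0.077), SLC38A2 (−0.0080), SLC38A4 (−0.10) and SLC7A1 (−0.11). In parental cells they were SLC1A1 (−0.24), SLC1A3 (−0.64), SLC1A5 (−0.44), SLC36A1 (−0.76), SLC36A2 (−0.48), SLC36A3 (−0.76), SLC38A8 (−0.17), SLC43A1 (−0.66), SLC6A19 (−0.16), SLC7A1 (−0.77), SLC7A2 (−0.56), SLC7A5 (−0.27) and NPRL2 (−0.10). In mutant cells they were SLC1A1 (−0.45), SLC1A3 (−0.82), SLC1A5 (−0.72), SLC36A1 (−0.89), SLC36A2 (−0.55), SLC36A3 (−0.65), SLC38A1 (−0.83), SLC38A2 (−0.85), SLC38A8 (−0.90), SLC43A1 (−0.81), SLC6A19 (−0.36), SLC7A1 (−0.89), SLC7A11 (−0.65), SLC7A2 (−0.72), SLC7A5 (−0.58), GOT1 (−0.63), guide 4 of SLC38A10 (−0.18) and guide 8 of SLC3A2 (−0.27).

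Other settings also turned signs, at values up to 0.45 in size (guide 2 of SLC38A10). SLC43A1 between the lines was 0.013 with library totals, 0.00021 with only the 2 groups and 0.00057 with the replicate block. In parental cells SLC36A1 was −0.013 with library totals, SLC36A3 −0.00015 with DESeq2 size factors, −0.015 with library totals and −0.00032 with DESeq2, and SLC7A1 −0.0091, −0.023 and −0.0091 in the same order. Leaving out a sample turned the sign between the lines of RPTOR (−0.079 to 0.69), SLC1A3 (−0.072 to 0.025), SLC43A1 (−0.071 to 0.050), SLC6A19 (−0.20 to 0.070), SLC6A9 (−0.33 to 0.11), SLC7A1 (−0.023 to 0.074), SLC7A2 (−0.031 to 0.0086), and guides 2 (−1.58 to 0.14) and 10 (−0.26 to 0.073) of SLC38A10. It did so in parental cells for SLC36A3 (−0.043 to 0.054), SLC6A5 (−0.12 to 0.00011) and SLC7A1 (−0.021 to 0.019), and in mutant cells for SLC38A8 (−0.043 to 0.063) and SLC7A1 (−0.020 to 0.076). Alternatives for single guides, for SETD2, for genes of the other lists and for SLC7A8, SLC6A8, SLC6A9 and SLC36A2 were added after the data were seen.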
